A study of Mus musculus with 56 samples.

Results

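Cortical thymic epithelial cells (cTECs) sorted from mice 6 days after they gave birth (D6, n = 3) were compared with cTECs sorted from mice at 18 days of gestation (D-2, n = 3). These 6 samples were chosen by the cell type and time point in their labels, from a series of 56 samples that also holds medullary thymic epithelial cells (mTECs), non-pregnant controls (NPC) and other days after birth. All mothers were B.6SJL-Ptprca Pep3b/BoyJ-CD45.1 females mated with BALB/cJ males, and the pups were taken away at birth, so the D6 mice had not nursed a litter up to that day. The age of the mice was not given in the sources used here. Thymi were dissociated with papain, collagenase IV and DNase, cTECs were sorted as EpCAM+CD45-UEA1- cells and mTECs as EpCAM+CD45-UEA1+ cells, and each sample came from 1 mouse. Polyadenylated RNA was sequenced. Levels are given as FPKM, a read count scaled for gene length and sequencing depth, so that they can be set side by side between genes.

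The thymus shrinks during pregnancy and regrows after birth. cTECs form the meshwork of the thymic cortex, where they attract T cell precursors, commit them to the T cell lineage through NOTCH ligands and select them on peptides cut by a proteasome particular to these cells. The transcription factor FOXN1 maintains much of that program. The values below concern mainly genes other than *Foxn1* and the targets that the study names. They cover metabolic enzymes, secreted proteins, surface proteins and the pathways around them. Whether FOXN1 also acts on these genes was not tested.

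Marker genes of several cell types were read beside the labelled cell type. Of 12 cTEC markers, all passed the filter on low expression and their summed FPKM went from 4644 to 6477 in the D-2 samples and from 19494 to 25032 in the D6 samples. The 12 mTEC markers were also present. Their summed FPKM was 5831 to 8147 at D-2, reaching above that of the cTEC markers, and 3683 to 4291 at D6. Most of that sum came from *Ccl21a*, a chemokine of medullary cells, at 3760 to 6267 and then 1753 to 2478, and from the keratin *Krt5*, at 1526 to 1724 and then 1103 to 1759. *Aire*, the regulator of tissue-restricted genes in mTECs, was low, at 4.66 to 14.1 and then 0.81 to 3.41, and *Ivl* was at 0 in every D6 sample. Of the 11 mTEC markers tested, 1 was called lower, 7 had all D6 samples below all D-2 samples and 1, *Cd40*, had them all above, at 2.42 to 8.48 and then 13.1 to 25.4. Over all genes tested, 0.669% were called lower. All D6 samples lay below all D-2 samples for 12.3% of genes and above them for 12.6%. The 20 thymocyte markers summed to between 44.4 and 50.7 FPKM at D-2 and between 128 and 164 at D6, and 14 of them had all D6 samples above all D-2 samples. *Rag2* was between 0 and 0.26 at D-2 and between 0.35 and 3.42 at D6, and *Thy1* between 4.3 and 9.72 and then between 19.1 and 29.4. The sums of macrophage and dendritic cell markers overlapped between the groups, at 22.7 to 53.0 and 29.9 to 42.9, and *Xcr1* was at 0 throughout. Of the 12 tested, 1 had all D6 samples above all D-2 samples. It was *Ptprc*, which encodes CD45, at 0.63 to 1.02 and then 1.14 to 3.06. Fibroblast markers summed to 318 to 436 and then 136 to 202, most of it *Dcn*. Of 9 fibroblast markers tested, 2 had all D6 samples below all D-2 samples and 1 above them, beside 12.3% and 12.6% of all genes. *Fbln1* was between 11.3 and 26.5 at D-2 and between 3.17 and 10.7 at D6, *Col3a1* between 9.75 and 16.6 and then between 4.08 and 16.2, and *Postn* between 3.76 and 32.6 and then between 2.56 and 4.85, while *Pdgfra* was at 0.37 or less and *Mfap5* at 0 in all 6 samples. The 11 endothelial markers summed to 5.25 to 15.7 and then 3.52 to 7.25, with *Cldn5* at 2.47 to 3.10 and then 0 to 1.61, and *Emcn* at 0 in all 6 samples. The 7 B cell markers summed to 20.5 to 27.9 and then 9.15 to 19.4, with *Cd79b* at 3.04 to 7.41 and then 0 to 1.64. The 8 erythroid and platelet markers summed to 0 to 10.1 and then 0 to 0.48, with *Hba-a2* at up to 4.80 at D-2 and at 0 in every D6 sample. The part of RNA from these other cell types in the changes below was not tested. In bulk samples of sorted cells, fewer cells of a type and less RNA per cell cannot be told apart.

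Total expected counts per sample were between 8495657 and 11639179 at D-2. At D6 replicate 3 was in the same range with 9562848, while the other 2 samples were deeper, up to 29884406. D6 replicate 3 also stood apart from the other 2 D6 samples in genes that tissue dissociation induces. *Fos*, which encodes a subunit of the AP-1 transcription factor, was at 3311, 2876 and 2892 FPKM at D-2 and at 960, 891 and 3071 at D6, and its partner *Jun* was at 1206, 1079 and 1057 and then at 536, 496 and 2012. For *Fos*, D6 replicate 3 was inside the D-2 range and the other 2 D6 samples were below it. Of the 20 immediate-early genes, 18 had a negative log2 fold change, with a median of −0.74. None was called, and 2 were lower at an adjusted p of at most 0.05 (limma-voom). The part of dissociation in the changes below was not tested.

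Genes were called where the level changed 2-fold or more and the p adjusted by the Benjamini-Hochberg method did not exceed 0.01 (limma-voom, 3 samples against 3). Of 15845 genes tested, 107 were called higher at D6 (0.675% of all genes) and 106 lower (0.669%), together 1.34%, and all 213 were protein coding. The median log2 fold change of all genes was −0.03. At the wider threshold of an adjusted p of at most 0.05 with any fold-change, 402 genes were higher (2.54%) and 526 lower (3.32%), together 5.86%. All 3 D6 samples lay above all 3 D-2 samples for 12.6% of genes and below them for 12.3%. Where a list below holds a single call, that call describes the gene and not the list. In the plot of change against level, the called genes reached from low to very high expression, with *Tbata*, *Prss16* and *Fabp5* at the upper right and *Apoe*, *Igfbp5* and *Gpx3* at the lower right.

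**Figure D1:**
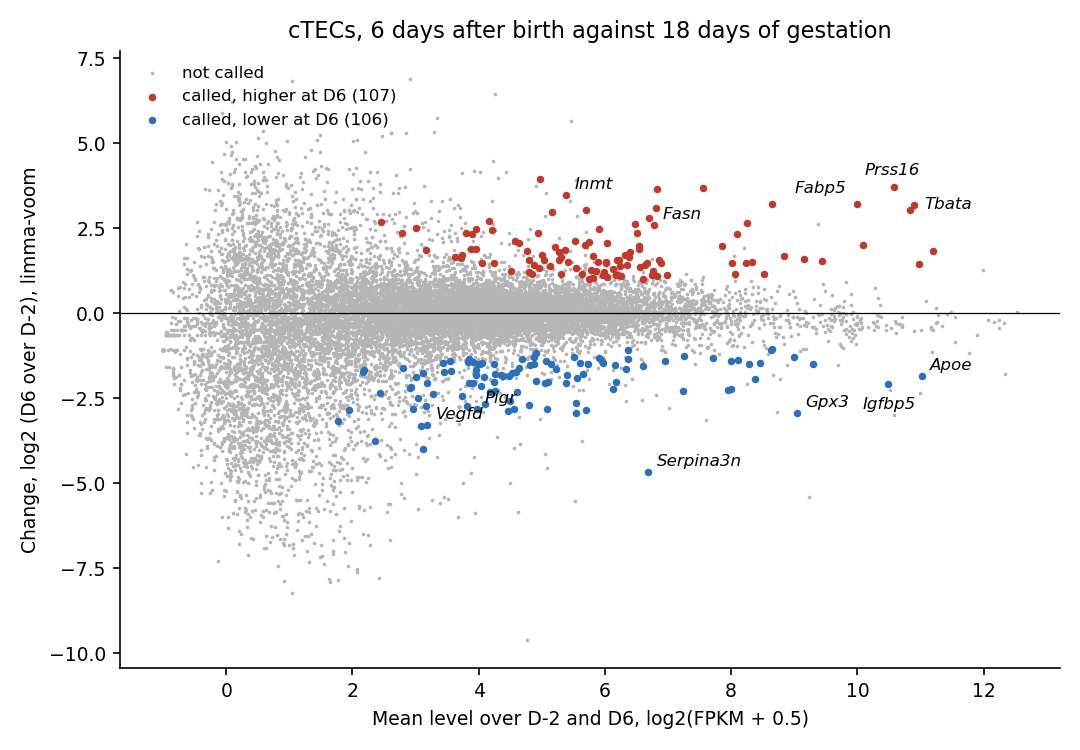
Each point is 1 of the 15845 genes tested, with its mean level over the 6 samples on the x axis as log2(FPKM + 0.5) and its log2 change from D-2 to D6 on the y axis. The 107 genes called higher are red and the 106 called lower are blue, and many low genes with larger changes are grey because their replicates spread too far to be called.

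The number called depended on each library. It was 135 without D6 replicate 1, 88 without D6 replicate 2, 135 without D6 replicate 3, 67 without D-2 replicate 1, 60 without D-2 replicate 2 and 108 without D-2 replicate 3. Drawing all 6 libraries down to the depth of the smallest left 43 calls. Fold changes are given below, or in the closing observations, for 89 called genes, of which 27 stayed called whichever library was left out. They were *Fasn*, *Fabp5*, *Crip3*, *Tbata*, *Pithd1*, *Fgf14*, *Mfsd12*, *Fxyd2*, *Mreg*, *Ly75*, *Prss16*, *Psmb11*, *Ctsl*, *Ccl25*, *Cd83*, *Dll4* and *Tmem131l* among the genes higher at D6, and *Serpina3n*, *Pigr*, *Lcn2*, *Igfbp4*, *Fst*, *Gpx3*, *Cdo1*, *Ctsa*, *Aldh1a1* and *Gsn* among those lower at D6. Of the others, 17 were called in none of the 6 fits with a library left out. They were *Srebf2*, *Sc5d*, *Psmb4* and, among genes lower at D6, *Pdk4*, *Ccl11*, *Notch1*, *Dscaml1*, *Cdhr5*, *Skint4*, *Mmp15*, *Nfkbia*, *Nr1d1*, *Foxj1*, *Elf3*, *Apol9b*, *Tmem176a* and *Aldh3a1*. Of the 89, *Inmt* and *Elf3* were the 2 whose adjusted p rose above 0.05 in any of them (limma-voom, up to 0.054 and 0.0562). None of the 89 changed direction.

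Of 23 enzymes, regulators and uptake genes that the sterol-sensing transcription factor SREBF2 controls, 22 had a positive log2 fold change, 19 had all D6 samples above all D-2 samples, 11 passed an adjusted p of 0.05 and 3 were called (limma-voom). Over all genes tested, the shares on the higher side were 12.6% without overlap, 2.54% past that adjusted p and 0.675% called. The list's median was 1.72, beside −0.03 over all genes. Its summed FPKM was between 212 and 253 in the D-2 samples and between 553 and 956 in the D6 samples. The first 300 bases around the start of the 3 called genes are shown with the motifs of factors known to act at sterol genes. The windows run from 250 bases before to 50 bases after the annotated start, on the gene's own strand, in the RefSeq annotation of GRCm38.p6. Capitals in the *Hmgcs1* window (chr13:119690101-119690400, plus strand) mark the sterol regulatory element TCACNCCAC and 4 copies of ATTGG, which is the CCAAT box on the other strand. In the windows of *Srebf2* (chr15:82147019-82147318, plus strand) and *Sc5d* (chr9:42264251-42264550, minus strand) they mark 1 ATTGG each.
Hmgcs1: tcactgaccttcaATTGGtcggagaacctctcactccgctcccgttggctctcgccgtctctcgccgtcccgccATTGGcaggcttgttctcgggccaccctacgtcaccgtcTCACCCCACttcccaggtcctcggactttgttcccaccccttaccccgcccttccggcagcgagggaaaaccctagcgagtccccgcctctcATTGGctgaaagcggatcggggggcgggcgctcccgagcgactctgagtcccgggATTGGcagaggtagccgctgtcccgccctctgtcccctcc
Srebf2: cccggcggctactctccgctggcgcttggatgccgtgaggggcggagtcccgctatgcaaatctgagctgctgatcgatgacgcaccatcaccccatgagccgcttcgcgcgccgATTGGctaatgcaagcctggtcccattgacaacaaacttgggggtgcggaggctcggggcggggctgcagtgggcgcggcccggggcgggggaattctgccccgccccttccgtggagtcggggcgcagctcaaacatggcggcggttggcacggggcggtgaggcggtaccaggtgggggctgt
Sc5d: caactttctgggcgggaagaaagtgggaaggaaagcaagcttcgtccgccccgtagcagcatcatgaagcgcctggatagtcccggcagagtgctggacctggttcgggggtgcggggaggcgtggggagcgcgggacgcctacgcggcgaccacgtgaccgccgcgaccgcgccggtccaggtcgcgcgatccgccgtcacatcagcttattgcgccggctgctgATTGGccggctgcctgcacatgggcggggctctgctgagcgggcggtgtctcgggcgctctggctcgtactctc

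The CCAAT box, searched as CCAAT on both strands, was in 16 of the 19 windows found for this list (84.2%), against 37.2% of the 14161 windows of all genes tested. The GC box GGGCGG was in 84.2% of them and 59.9% of all. The element TCACNCCAC was in 1 of the 19, that of *Hmgcs1*, where it began 137 bases before the start, and in 1.15% of all windows. It was also in 1 of the 19 windows of the acute-phase list described below. Among genes called higher it was in 0.926% of windows, and among genes called lower in 4.04%. TATAAA, the TATA box, was in none of the 19 and in 7.72% of all. These are matches of letters and no measurements of binding, and 16 of the 23 genes had a window.

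*Hmgcs1*, which makes the precursor of mevalonate, was at 7.66, 10.4 and 8.57 FPKM at D-2 and at 48.4, 26.1 and 45.2 at D6. The groups did not overlap, and the mean was 4.49 times higher (log2 fold change 2.06, SE 0.32, limma-voom adjusted p = 0.00682). *Sc5d*, a late desaturase of the sterol ring, was at 27.8, 37.1 and 32.2 and then at 88.6, 71.2 and 95.8, again with no overlap (log2 fold change 1.5, SE 0.22, limma-voom adjusted p = 0.00573). *Srebf2* itself was at 36.8, 37.2 and 33.9 and then at 88.7, 65.0 and 74.1, and rose by 1.03 on the log2 scale (SE 0.16, limma-voom adjusted p = 0.00837). With 1 library left out, *Hmgcs1* stayed called only without D6 replicate 2, and *Sc5d* and *Srebf2* missed an adjusted p of 0.01 in all 6 fits.

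A further 8 members passed only the wider threshold, and 5 of them are named here after their values were seen. *Fdps*, which makes farnesyl diphosphate, was at 9.9, 8.83 and 4.26 FPKM at D-2 and at 118, 66.2 and 51.0 at D6, the largest change among the 11 (log2 fold change 3.31, SE 0.61, limma-voom adjusted p = 0.0149). *Lss*, *Fdft1*, *Msmo1* and *Sqle*, enzymes that make squalene or turn it into sterols, had log2 fold changes of 2.19, 1.72, 1.67 and 1.46 (limma-voom adjusted p from 0.0252 to 0.0384). D6 replicate 1 was the highest sample in each of these 5 genes. The member with a negative value was *Ebp*, at 32.2, 19.5 and 12.1 FPKM and then at 17.2, 20.3 and 11.8, with overlapping groups. With 1 library left out, the number of members past the wider threshold was 9 without D6 replicate 1, 10 without replicate 2 and 5 without replicate 3, and 3, 3 and 4 without D-2 replicates 1, 2 and 3, while the median stayed between 1.48 and 1.95. The number past it and the number called were 18 and 8 with the edgeR quasi-likelihood test, 18 and 18 with DESeq2, 5 and 0 with limma-trend on log2(FPKM + 0.5), 4 and 0 with limma-trend on log2(FPKM + 0.1), and 5 and 0 with all libraries at equal depth.

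**Figure D2:**
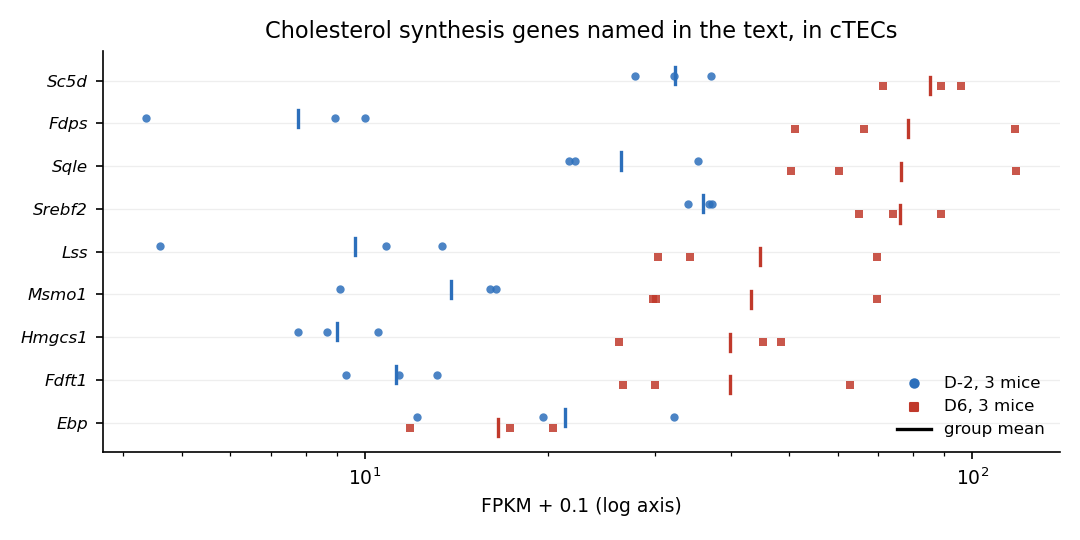
FPKM + 0.1 on a log axis for the 9 cholesterol synthesis genes named in the text, with D-2 samples as blue circles, D6 samples as red squares and group means as short vertical lines. All red squares lie to the right of all blue circles in every gene but *Ebp*, whose D6 mean lies to the left.

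Fatty acid synthesis showed a narrower change, carried by 3 of its 15 genes, with a median of 0.06 for the list that turned to −0.13 without D6 replicate 1. *Fasn*, the enzyme that builds palmitate (chromosome 11, 120805846 to 120824547, minus strand, GRCm38), was at 38.6, 30.6 and 24.5 FPKM at D-2 and at 237, 147 and 180 at D6. The lowest D6 sample was far above the highest D-2 sample (log2 fold change 2.59, SE 0.20, limma-voom adjusted p = 2.75e-04). *Scd2*, a desaturase of saturated fatty acids, was at 38.5, 39.5 and 35.4 and then at 183, 94.6 and 166 (log2 fold change 1.88, SE 0.23, limma-voom adjusted p = 0.00221). *Srebf1*, the relative of SREBF2 that controls fatty acid genes, was at 88.2, 49.2 and 70.8 and then at 160, 158 and 178 (log2 fold change 1.49, SE 0.18, limma-voom adjusted p = 0.00184). Of these 3, 1 stayed called without D-2 replicate 1 or 2 and 2 without D6 replicate 3. No other member passed the wider threshold: *Acly*, which supplies cytosolic acetyl-CoA, was at 38.1 ± 4.97 and 51.9 ± 18.2 (SD, n = 3), and *Elovl6*, an elongase, at 13.1 ± 3.03 and 7.39 ± 1.36.

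Lipid carriers moved in opposite directions. *Fabp5*, which binds fatty acids inside epithelial cells (chromosome 3, 10012548 to 10016607, plus strand), was at 217, 212 and 153 FPKM at D-2 and at 1496, 1922 and 2090 at D6. It was 9.46 times higher in mean and had the smallest adjusted p among the genes higher at D6, together with *Prss16* (log2 fold change 3.22, SE 0.19, limma-voom adjusted p = 7.09e-05). *Apoe*, the apolipoprotein that carries cholesterol out of cells (chromosome 7, 19696109 to 19699188, minus strand), was among the most abundant transcripts at D-2, at 3285, 3332 and 2963, and was at 842, 1336 and 736 at D6. The groups were well apart (log2 fold change −1.84, SE 0.24, limma-voom adjusted p = 0.00301). *Abca1*, the transporter that loads cholesterol onto apolipoproteins, was at 46.5, 33.7 and 47.5 and then at 12.3, 14 and 18.3 (log2 fold change −1.49, SE 0.18, limma-voom adjusted p = 0.00214). In the list of 13 efflux genes and targets of the oxysterol receptor LXR, these 2 genes fell and *Srebf1* rose, with a list median of −0.44. *Pdk4*, which blocks the entry of pyruvate into the citrate cycle when cells burn fat, was at 62.6, 31.2 and 26.4 and then at 1.38, 3.77 and 13.5, and fell by 2.82 on the log2 scale (SE 0.44, limma-voom adjusted p = 0.00754). Among 26 genes of fatty acid oxidation and PPAR targets, *Fabp5* and *Pdk4* were the 2 called and the median was −0.24. No gene was called among the 16 of triglyceride storage, the 21 of glycolysis, the 25 of the citrate cycle, the 36 of complex I or the 26 of the pentose phosphate pathway and nucleotide synthesis, whose medians lay between −0.29 and 0.23. *Gapdh* of glycolysis, for example, was at 734 ± 39.1 FPKM at D-2 and 866 ± 177 at D6 (SD, n = 3). Over all genes tested, 1.34% were called.

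Among the pathway lists, that of secreted acute-phase and innate defence proteins had the lowest median. All 22 members tested had a negative log2 fold change, 14 had all D6 samples below all D-2 samples, 11 passed an adjusted p of 0.05 and 6 were called (limma-voom). Over all genes tested, the shares on the lower side were 12.3% without overlap, 3.32% past that adjusted p and 0.669% called. The median of the list was −2.60, and its summed FPKM was between 1853 and 2121 at D-2 and between 697 and 861 at D6. *Serpina3n*, a secreted inhibitor of serine proteases (chromosome 12, 104406729 to 104414329, plus strand), had the largest decrease of all called genes. It was at 178, 175 and 239 FPKM at D-2 and at 9.59, 6.51 and 7.24 at D6. No D6 sample came near a D-2 sample, and the mean was 25.3 times lower (log2 fold change −4.68, SE 0.24, limma-voom adjusted p = 4.98e-05). Its start window (chr12:104406458-104406757, plus strand, RefSeq on GRCm38.p6) is shown because it holds, in capitals, ACAGCTTGT, a match to ACANNNTGT, the loose form of the element that receptors of glucocorticoids, progesterone and androgens bind.
Serpina3n: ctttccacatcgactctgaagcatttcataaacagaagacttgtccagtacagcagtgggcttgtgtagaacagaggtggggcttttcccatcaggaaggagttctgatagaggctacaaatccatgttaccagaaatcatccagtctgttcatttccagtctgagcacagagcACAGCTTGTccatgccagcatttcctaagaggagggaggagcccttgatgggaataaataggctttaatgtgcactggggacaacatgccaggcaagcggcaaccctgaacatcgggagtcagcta

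ACANNNTGT, which reads the same on both strands, was in 21.1% of the 19 windows found for the acute-phase list and 4.36% of all windows, and TATAAA in 26.3% and 7.72%. CCAAT was in 1 of the 19. A match is a description and no measurement of binding.

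*Reg3g*, an antibacterial lectin, was at 70.7, 111 and 60.8 FPKM at D-2 and at 12.2, 7.4 and 15.1 at D6 (log2 fold change −2.94, SE 0.37, limma-voom adjusted p = 0.00237). *Pigr*, which carries polymeric immunoglobulins across epithelia, was at 22.1, 30.7 and 27.9 and then at 3.64, 3.42 and 3.18 (log2 fold change −2.83, SE 0.21, limma-voom adjusted p = 2.62e-04). *Lcn2*, which withholds iron from bacteria, was at 67.2, 47.3 and 60.4 and then at 5.84, 10.4 and 9.59 (log2 fold change −2.82, SE 0.31, limma-voom adjusted p = 0.00139). In all 3 genes the highest D6 sample was below the lowest D-2 sample by a wide margin. The chaperone *Clu* and the complement component *C3*, the most abundant members, changed less. *Clu* was at 493, 504 and 535 and then at 156, 245 and 182 (log2 fold change −1.46), and *C3* at 620, 695 and 802 and then at 313, 374 and 255 (log2 fold change −1.30). With a library left out, the number of members called was 3 without D-2 replicate 1 or D6 replicate 3, 4 without D-2 replicate 2 or 3 and 5 without D6 replicate 1 or 2, and the number past the wider threshold was 6 to 9, with the lowest count without D6 replicate 2. The median was between −2.76 and −1.89 over all alternatives tried. Of the 6 called members, 2 had a higher mean in mTECs than in cTECs at D-2, *Reg3g* at 215 FPKM and *Lcn2* at 72.7, and 4 a lower one, with *Serpina3n* at 121, *Pigr* at 23.6, *Clu* at 422 and *C3* at 702. For *Pigr* and *C3* the mTEC mean lay inside the range of the cTEC samples at D-2. The mTEC marker sum was lower at D6, as given above.

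Hormone response genes were examined because pregnancy hormones fall at birth. Of 14 genes that receptors of glucocorticoids or progesterone induce, 4 were called lower and 6 passed the wider threshold, all lower, with a median of −1.05. Over all genes tested, 0.669% were called lower and 3.32% were lower at the wider threshold. *Zbtb16*, a zinc finger transcription factor, was at 4.14, 5.49 and 6.00 FPKM at D-2 and at 0.73, 0.47 and 0.64 at D6 (log2 fold change −3.17, SE 0.42, limma-voom adjusted p = 0.00308). *Klf9*, a Krüppel-like factor, was at 121, 96.1 and 144 and then at 52.2, 26.1 and 42.5 (log2 fold change −1.66, SE 0.26, limma-voom adjusted p = 0.00719). *Cdkn1c*, which encodes the cell cycle inhibitor p57, was at 18.8, 58.1 and 34.2 and then at 6.23, 8.07 and 3.94 (log2 fold change −2.87, SE 0.47, limma-voom adjusted p = 0.00886). The fourth was *Pdk4*, given above. The list did not move as a whole, since 4 of the 14 had a positive value. One of these was *Tsc22d3*, an anti-inflammatory factor, at 20.2 ± 5.31 and 43.5 ± 15.8, and *Fkbp5*, a receptor chaperone with a small negative value, was at 57.5 ± 20 and 48.2 ± 2.01 (SD, n = 3), with neither past the wider threshold. *Nr3c1*, the glucocorticoid receptor itself, was at 33.6 ± 0.80 and 38.3 ± 1.78. The number of called members was 2, 0 and 0 without D-2 replicates 1, 2 and 3 and 3, 1 and 1 without D6 replicates 1, 2 and 3. Of 10 genes that the estrogen receptor induces, 2 were called lower, *C3* and *Igfbp4*, with a median of −1.38, and *Esr1*, the receptor, was at 2.86 ± 0.811 and 3.43 ± 0.722. The number called in the estrogen list was 3 without D6 replicate 2 and 1 without any of the other 5 libraries. Of 8 steroid receptors tested, none was called, and the median was −0.34. In that list 5 had a negative and 3 a positive value, and 1 passed the wider threshold, lower. The study reports the progesterone receptor gene *Pgr* as higher at D-2 in cTECs, and its level is not given here. Among 11 readouts of prolactin and STAT5 signalling, *Socs2*, a feedback inhibitor, was the 1 called, at 21.2, 24.9 and 29.3 and then at 10.6, 6.69 and 6.19 (log2 fold change −1.87, SE 0.30, limma-voom adjusted p = 0.00851).

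Of 8 insulin-like growth factor binding proteins, secreted proteins that hold these growth factors, 2 were called lower and 3 passed the wider threshold, with a median of −1.40. Over all genes tested, 0.669% were called lower and 3.32% were lower at the wider threshold. *Igfbp5* was among the most abundant transcripts at D-2, at 3166, 1649 and 2128 FPKM, and was at 568, 622 and 463 at D6 (log2 fold change −2.07, SE 0.24, limma-voom adjusted p = 0.00184). *Igfbp4* was at 406, 381 and 430 and then at 91.7, 88.1 and 76.0, with very little spread inside either group (log2 fold change −2.25, SE 0.18, limma-voom adjusted p = 2.75e-04). *Igfbp7*, by contrast, was at 49.9 ± 12.4 and 63.0 ± 21.2 (SD, n = 3) and its groups overlapped. Without D6 replicate 3 or D-2 replicate 1, 1 binding protein was called.

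Other secreted signals fell one by one. *Vegfd*, a ligand for the receptor of lymphatic endothelium, was at 14.3, 14.8 and 15.6 FPKM at D-2 and at 2.22, 1.91 and 2.55 at D6 (log2 fold change −3.30, SE 0.38, limma-voom adjusted p = 0.00164). Its list of 20 vascular and semaphorin ligands had 1 call, beside 1.34% of all genes tested, and a median of −0.65. *Fst*, which encodes follistatin, the antagonist of activin, was at 33.2, 42.6 and 42.1 and then at 8.69, 6.65 and 9.97 (log2 fold change −2.33, SE 0.22, limma-voom adjusted p = 5.13e-04), the 1 call among 21 BMP and activin ligands and antagonists. *Ccl11*, which attracts eosinophils, was at 102, 101 and 100.1 and then at 24.7, 38.8 and 57.8 (log2 fold change −1.53, SE 0.25, limma-voom adjusted p = 0.0087). It was the 1 call among 22 chemokines other than the named FOXN1 targets, and the median of that list was −1.18. No gene was called among 10 thymopoietic cytokines or among 25 ligands of the EGF, FGF, IGF and neurotrophin families. *Il7*, the main survival factor of early T cells, was at 53.9, 53.5 and 83.0 and then at 128, 125 and 109, so that the groups did not overlap, with a change under 2-fold (log2 fold change 0.93, SE 0.21, limma-voom adjusted p = 0.0339). *Kitl*, the ligand of KIT on precursors, was at 29.9, 15.7 and 13.8 and then at 44.8, 41.7 and 40.9 and missed the call by its adjusted p alone (log2 fold change 1.31, SE 0.22, limma-voom adjusted p = 0.0102), and is named after its values were seen.

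The 12 largest increases outside FOXN1 and its named targets, among called genes whose higher group averaged 5 FPKM or more and whose groups did not overlap, held enzymes, carriers and channels of diverse function. *Inmt*, which methylates indoleamines, was at 20.3, 4.38 and 3.65 FPKM at D-2 and at 60.1, 85 and 75.1 at D6. D-2 replicate 1 stood above the other 2 (log2 fold change 3.48, SE 0.54, limma-voom adjusted p = 0.00705). *Crip3*, a thymus LIM-domain protein, was at 113, 60.8 and 53.2 and then at 566, 679 and 942 (log2 fold change 3.21, SE 0.26, limma-voom adjusted p = 2.75e-04). *Tbata*, named for its expression in thymus, brain and testis, was at 601, 249.6 and 339 and then at 3068, 3519.7 and 3628 (log2 fold change 3.18, SE 0.28, limma-voom adjusted p = 4.23e-04). These levels put *Tbata* beside *Prss16* among the most abundant transcripts at D6. *Pithd1* was at 35.1, 26.2 and 18.8 and then at 140.0, 189 and 261 (log2 fold change 3.10). *Fgf14*, an intracellular member of the FGF family that binds sodium channels, was at 9.62, 9.55 and 14.3 and then at 97.5, 93.2 and 84.5 (log2 fold change 3.02, SE 0.22, limma-voom adjusted p = 2.62e-04). *Mfsd12*, a lysosomal cysteine transporter, had a log2 fold change of 2.99 and *Ache*, acetylcholinesterase, of 2.81. *Ache* was at 33.2, 27.7 and 17.7 and then at 134, 145 and 262, with D6 replicate 3 the highest. The rest were the calcium-permeable channel *Trpm2* (log2 fold change 2.72), the scaffold protein *Shank2* (2.68), the sodium pump subunit *Fxyd2* (2.65) and *Mreg*, melanoregulin (2.62), with *Fabp5* given above. The largest D-2 value of *Trpm2*, 12.7 in replicate 1, was again well above those of the other 2 samples, 3.12 and 2.38.

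The 12 largest decreases by the same rule included 5 genes already described (*Serpina3n*, *Vegfd*, *Zbtb16*, *Reg3g* and *Pigr*) and *Cdkn1c*. *Gpx3*, a secreted glutathione peroxidase, was the most abundant of the 12, at 652, 809 and 1350.0 FPKM at D-2 and at 123, 121 and 111 at D6. The D6 samples were nearly equal (log2 fold change −2.95, SE 0.25, limma-voom adjusted p = 2.97e-04). *Cdo1*, cysteine dioxygenase, which starts the breakdown of cysteine to taurine, was at 101, 70.1 and 100.4 and then at 12.8, 13.6 and 10.3 (log2 fold change −2.84, SE 0.23, limma-voom adjusted p = 2.75e-04). *Aoc1*, which oxidizes histamine and putrescine, was at 7.81, 19.8 and 17.5 and then at 1.45, 0.41 and 1.85 (log2 fold change −3.99, SE 0.62, limma-voom adjusted p = 0.00746). The adhesion molecule *Dscaml1*, the microvillar cadherin *Cdhr5* and *Skint4*, of a family of immunoglobulin-like membrane proteins, had log2 fold changes of −3.75, −3.31 and −2.84. *Dscaml1* was the least even of them, at 3.40, 0.11 and 1.13 FPKM in the D6 samples. Of these 12 genes, 7 had a higher mean in mTECs than in cTECs at D-2 and 5 a lower one. *Dscaml1*, at 40.5 FPKM in mTECs, was by ratio the furthest above its cTEC level and *Vegfd*, at 2.40, the furthest below it.

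**Figure D3:**
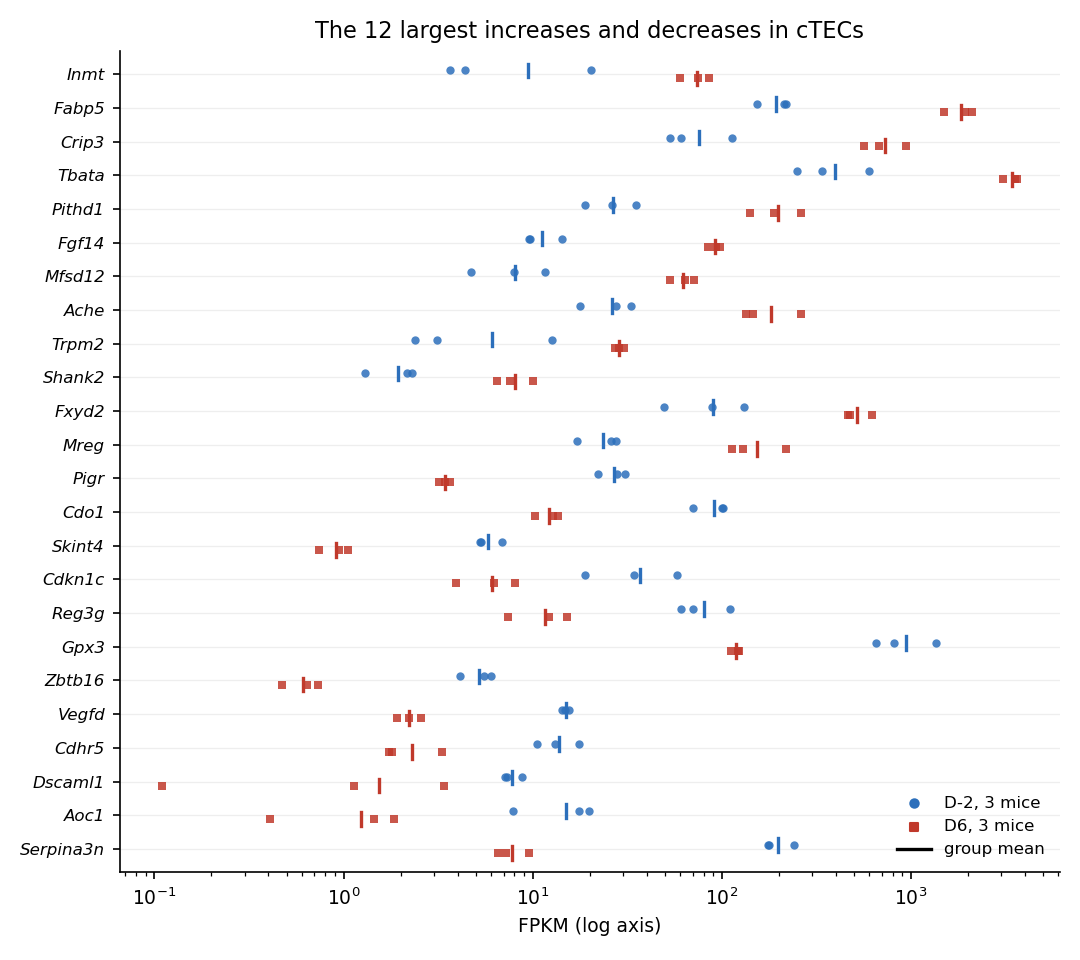
FPKM on a log axis for the 12 largest increases and the 12 largest decreases outside FOXN1 and its named targets, with D-2 samples as blue circles, D6 samples as red squares and group means as short vertical lines. The rule required groups that do not overlap, and the gap is widest for *Serpina3n* at the bottom, where D-2 samples sit between 175 and 239 and D6 samples between 6.51 and 9.59.

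Among surface proteins, of 26 tight junction and desmosome genes, 3 were called lower, with 7 lower and 2 higher at the wider threshold and a median of −0.19. Over all genes tested, 0.669% were called lower, and at the wider threshold 3.32% were lower and 2.54% higher. *Cldn1* was at 60.6, 62.0 and 67.7 FPKM at D-2 and at 24.5, 29.6 and 24.8 at D6 (log2 fold change −1.30, SE 0.16, limma-voom adjusted p = 0.00205). *Cldn3* was at 23.7, 26.8 and 15.6 and then at 5.72, 4.81 and 6.22 (log2 fold change −2.05, SE 0.33, limma-voom adjusted p = 0.00837). *Tjp3*, which anchors tight junctions to the cytoskeleton, was at 13.3, 22.9 and 8.21 and then at 2.00, 1.46 and 3.16 (log2 fold change −2.75, SE 0.40, limma-voom adjusted p = 0.00569). Over all 15 claudins the median was −2.05, and 8 had all D6 samples below all D-2 samples, beside 12.3% of all genes. *Cldn3* is itself an mTEC marker, and *Cldn4*, another, was between 16.4 and 39.0 at D-2 and between 1.68 and 10.5 at D6. No junction gene stayed called without D-2 replicate 1 or 2.

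*Nectin2*, an adhesion molecule and ligand of T cell receptors of the CD226 family, was the 1 call among 20 costimulatory and inhibitory ligands, at 58.1, 23.7 and 26.8 FPKM and then at 6.51, 6.33 and 9.35 (log2 fold change −1.86, SE 0.21, limma-voom adjusted p = 0.00158). *Il6ra* binds interleukin 6, the inducer of acute-phase genes. It was the 1 call among 36 growth factor and cytokine receptors, beside 1.34% of all genes tested. It was at 10.4, 10.7 and 12.3 and then at 1.69, 3.41 and 4.12 (log2 fold change −2.17, SE 0.26, limma-voom adjusted p = 0.00201). *Notch1* was at 47.2, 31.4 and 44.5 and then at 18.6, 15.2 and 19.8 (log2 fold change −1.17, SE 0.16, limma-voom adjusted p = 0.00431), the 1 call among 17 NOTCH genes other than *Dll4*. *F3*, tissue factor, was at 83.7, 82.1 and 93.6 and then at 30.6, 30.9 and 47.7 (log2 fold change −1.40), the 1 call among 11 YAP and TAZ readouts. In the opposite direction, the cTEC surface gene *Ly75*, which encodes the endocytic receptor CD205, was at 33.4, 24.7 and 30.1 and then at 128, 134 and 191 (log2 fold change 2.35, SE 0.19, limma-voom adjusted p = 2.75e-04). *Krt8*, a keratin of cortical epithelium, was at 1159, 1009 and 969 and then at 3456, 3336 and 2148 (log2 fold change 1.44, SE 0.21, limma-voom adjusted p = 0.00602). Over all 29 keratins tested the median was −1.78.

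Matrix genes split. *Tnc*, tenascin C, was at 167, 191 and 134 FPKM at D-2 and at 398, 528 and 505 at D6 (log2 fold change 1.52, SE 0.19, limma-voom adjusted p = 0.00235). The collagen VI chains *Col6a1*, at 137, 166 and 123 and then 34.8, 52.9 and 64.4, and *Col6a2*, at 79.7, 116 and 78.0 and then 31.1, 34.0 and 35.1, fell together (log2 fold changes −1.56 and −1.46, limma-voom adjusted p = 0.00443 and 0.00237). *Col23a1*, a transmembrane collagen, was the third call among 34 collagens (log2 fold change −2.36, SE 0.36). Among 26 basement membrane and collagen genes the median was −0.33. Over all genes tested, 1.34% were called. *Mmp15*, a membrane-bound matrix protease, was the 1 call among 27 proteases and inhibitors of the matrix, at 14.3, 19.5 and 15.0 and then at 6.11, 6.63 and 5.69 (log2 fold change −1.41, SE 0.19, limma-voom adjusted p = 0.00408). *Dcn*, decorin, a proteoglycan that fibroblasts make in most tissues, was at 266, 348 and 274 and then at 99.0, 138 and 128 (log2 fold change −1.32, SE 0.18, limma-voom adjusted p = 0.00355). Its list of 12 fibroblast markers is described above, and its part in the change was not tested.

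Of the 31 constitutive subunits of the proteasome, 30 had a positive log2 fold change, 19 had all D6 samples above all D-2 samples, 13 passed an adjusted p of 0.05 and 1 was called (limma-voom). Over all genes tested, the shares on the higher side were 12.6% without overlap, 2.54% past that adjusted p and 0.675% called. The median of the subunits was 0.49, and their summed FPKM was between 2915 and 3312 at D-2 and between 4002 and 5074 at D6. *Psmb4*, of the catalytic core, was at 282, 179 and 232 and then at 532, 544 and 438 (log2 fold change 1.16, SE 0.17, limma-voom adjusted p = 0.00553). This call was lost whichever library was left out, with adjusted p between 0.0124 and 0.0395 (limma-voom), and at equal depth. The number past the wider threshold was 6, 2 and 12 without D6 replicates 1, 2 and 3 and 1, 1 and 2 without D-2 replicates 1, 2 and 3, while the median stayed between 0.39 and 0.64 over all alternatives tried. *Psmb10*, an immunoproteasome subunit, was at 198, 176 and 219.9 and then at 826, 818 and 491 (log2 fold change 1.68, SE 0.19, limma-voom adjusted p = 0.00169). Its partner subunit *Psmb9* was at 174 ± 38.0 and 361 ± 47.7 (SD, n = 3) and rose at the wider threshold (limma-voom adjusted p = 0.0114), while *Psmb8* was at 212 ± 5.63 and 168 ± 44.9 and did not pass it. The thymoproteasome subunit *Psmb11*, a named FOXN1 target, was at 36.2, 15.8 and 29.9 and then at 446, 377 and 223 (log2 fold change 3.67). No gene of MHC class II presentation was called (14 tested, median −0.01), and *Cd74*, the invariant chain, was at 5722 ± 65.7 and 6101 ± 575.

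Lysosomal proteases changed in opposite directions. *Ctsl*, which cuts self peptides for class II presentation in cTECs, was at 1281, 759 and 1029 FPKM at D-2 and at 3151, 3804 and 4048 at D6 (log2 fold change 1.83, SE 0.21, limma-voom adjusted p = 0.00158). *Ctsa* was at 51.5, 49.6 and 49.2 and then at 17.3, 18.6 and 22.4 (log2 fold change −1.5, SE 0.16, limma-voom adjusted p = 0.00123), and *Ctsf* at 55.3, 52.8 and 59.9 and then at 15.6, 22.9 and 15.8 (log2 fold change −1.63, SE 0.20, limma-voom adjusted p = 0.00221). Of the 12 cathepsins tested, *Ctsl* was the 1 with a positive value. Of 10 genes that the study names as FOXN1 targets, 7 were called higher, and the median of the 10 was 2.44. Beside *Psmb11* and *Ctsl*, those called were *Prss16*, *Ccl25*, *Cd83*, *Cxcl12* and *Dll4*, with log2 fold changes of 3.71, 3.05, 3.66, 1.52 and 3.95. The other 3 had a negative value, and 1 of them had all D6 samples below all D-2 samples.

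Redox, retinoid and stress genes gave single calls in either direction, beside 1.34% of all genes tested. In the list of 23 NRF2 and glutathione genes, *Srxn1*, which repairs oxidized peroxiredoxins, rose from 17.3, 21 and 15.5 FPKM to 58.2, 70.7 and 45.9 (log2 fold change 1.56, SE 0.21, limma-voom adjusted p = 0.00353), while *Gpx3* fell, as given above. *Aldh1a1*, which makes retinoic acid, was at 24, 19.8 and 20 and then at 3.41, 4.10 and 5.36 (log2 fold change −2.42, SE 0.26, limma-voom adjusted p = 0.00116), the 1 call among 13 retinoid genes. *Alox5*, the start of leukotriene synthesis, was at 35.6, 23.0 and 27.2 and then at 9.51, 6.25 and 10.6 (log2 fold change −1.78), the 1 call among 18 eicosanoid and phospholipase genes, of which 16 had a negative value. *Bnip3l*, a receptor for the removal of mitochondria that also marks hypoxia, was at 261, 198 and 241 and then at 1025, 995 and 688 (log2 fold change 1.6, SE 0.20, limma-voom adjusted p = 0.00255), and *Stc2*, a glycoprotein of the ATF4 response, at 1.21, 2.03 and 6.66 and then at 11.8, 11.3 and 12 (log2 fold change 2.51). D-2 replicate 3 was the highest of its group for *Stc2*. *Herpud1*, of the unfolded protein response, was at 76.8, 70.2 and 77.3 and then at 48.0, 36.5 and 46.1 (log2 fold change −1.33), and none of 13 heat shock genes was called.

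*Nfkbia*, the feedback inhibitor of NF-kB, was at 744, 779.5 and 1269 FPKM at D-2 and at 364, 269.9 and 364 at D6 (log2 fold change −1.49, SE 0.23, limma-voom adjusted p = 0.00666), the 1 call among 15 genes of that pathway. Of 23 type I interferon response genes, 20 had a negative value, 9 passed the wider threshold on that side and 1 on the other, and *Ifit1* was called, at 323, 397 and 468 and then at 182, 124 and 166 (log2 fold change −1.37, SE 0.20, limma-voom adjusted p = 0.00526). The median of that list was −0.73, and 2 to 5 of its genes passed the wider threshold on the lower side without any of the 3 D-2 samples or without D6 replicate 1 or 2. None of 18 interferon-gamma response genes was called, and 1.34% of all genes tested were. Of 17 clock genes 6 passed the wider threshold, all lower, and *Nr1d1*, a repressor in the clock, was called, at 104, 98.2 and 128 and then at 45.5, 61.7 and 54.0 (log2 fold change −1.08, SE 0.17, limma-voom adjusted p = 0.00749). Between 1 and 4 clock genes passed it with 1 library left out. The time of day at which the mice were killed was not given in the sources used here.

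No gene of cell division was called. The 30 mitosis genes had a median of 1.21, 8 had all D6 samples above all D-2 samples and 1 passed the wider threshold, and the 30 S phase genes had a median of 0.46 and none past it. All D6 samples lay above all D-2 samples for 12.6% of all genes tested, and 1.34% were called. The mitosis list's summed FPKM was between 42.9 and 104 at D-2 and between 113 and 132 at D6, and the thymocyte marker sum rose over the same interval, as given above. Of 27 transcription factors of thymic epithelium other than *Foxn1*, *Klf5* was at 20.3, 29.2 and 38.6 and then at 6.43, 6.85 and 9.38 (log2 fold change −2.04, SE 0.29, limma-voom adjusted p = 0.00481) and *Elf3*, an epithelial ETS factor, at 38.6, 46.9 and 37.6 and then at 12.8, 15.1 and 22.7 (log2 fold change −1.30, SE 0.21, limma-voom adjusted p = 0.00905). *Foxj1*, the regulator of motile cilia, was the 1 call among 17 tissue-restricted genes, at 10.3, 15.1 and 9.11 and then at 2.34, 2.85 and 2.30 (log2 fold change −2.19). *Chga*, of neuroendocrine granules, spread widely, at 3258, 4777 and 232 and then at 119, 83.3 and 748, and was not called.

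**Figure D4:**
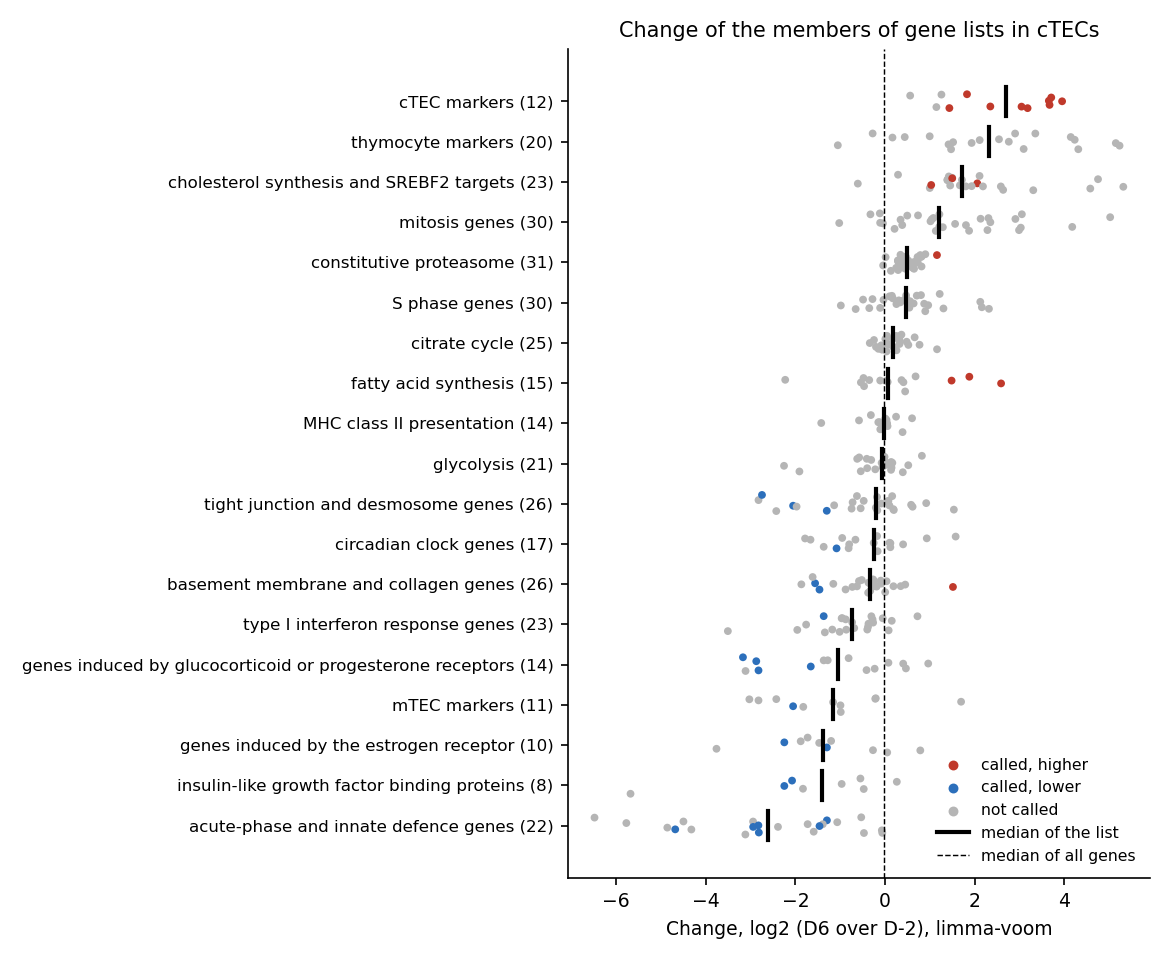
Each point is 1 gene of the list named on the left, with the number of its members tested in parentheses and the log2 change from D-2 to D6 on the x axis. Red and blue points are called genes, thick bars are list medians and the dashed line is the median of all genes, −0.03. Medians run from 2.70 for the cTEC markers to −2.60 for the acute-phase genes.

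By family, 3 groups beyond those above had at least 3 called members. Of 188 *Tmem* genes, *Tmem131l*, *Tmem181a* and *Tmem184b* rose and *Tmem176a* fell (log2 fold changes 1.97, 1.85, 1.14 and −1.09). *Tmem131l*, a regulator of thymocyte proliferation, was at 84.0, 95.3 and 94.1 FPKM and then at 351, 325 and 443. Of 33 apolipoproteins and lipid-binding proteins, *Apoe* and *Apol9b* fell (log2 fold change −1.85 for the latter, which has a close copy in the genome that may share its reads), *Fabp5* rose and the median was −1.82. Of 36 chemokines and their receptors, *Ccl25* and *Cxcl12* rose and *Ccl11* fell. Of 237 solute carriers, 2 were called, 1 in each direction, beside 1.34% of all genes tested.

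The other days placed these changes in time, although every difference from D-2 shares the D-2 samples. On the scale of log2(FPKM + 0.5), the genes called higher had a median difference from D-2 of 0.46 on D0, 1.23 on D3, 1.61 on D6 and 1.31 on D12, and 1.01 in NPC. Genes called lower had medians of −0.39, −0.81, −1.69 and −1.06 at these days and −0.80 in NPC. The genes were picked at D6, so the extreme at D6 is in part a result of that choice. The lists followed different courses. Cholesterol genes stood 0.28 ± 0.09 above D-2 on D0, 0.33 ± 0.41 on D3, 1.65 ± 0.44 on D6 and 1.28 ± 0.10 on D12 (SD, n = 3), at 1.54 in the 1 sample of D8 and at 0.94 in that of D28. Acute-phase genes were at −0.07 ± 0.14, −1.0 ± 0.49, −1.89 ± 0.18 and −0.59 ± 0.67 on these 4 days and at 0.25 and 0.12 in the single samples of D24 and D28. Proteasome genes were at 0.06 ± 0.11, 0.41 ± 0.26, 0.54 ± 0.18 and 0.73 ± 0.03. The NPC mean lay between the D-2 and the D6 mean for cholesterol, acute-phase, binding protein, hormone response and proteasome genes, at 0.89, −0.84, −0.75, −0.58 and 0.27. For mitosis genes NPC was at 0.85 and D6 at 0.81.

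**Figure D5:**
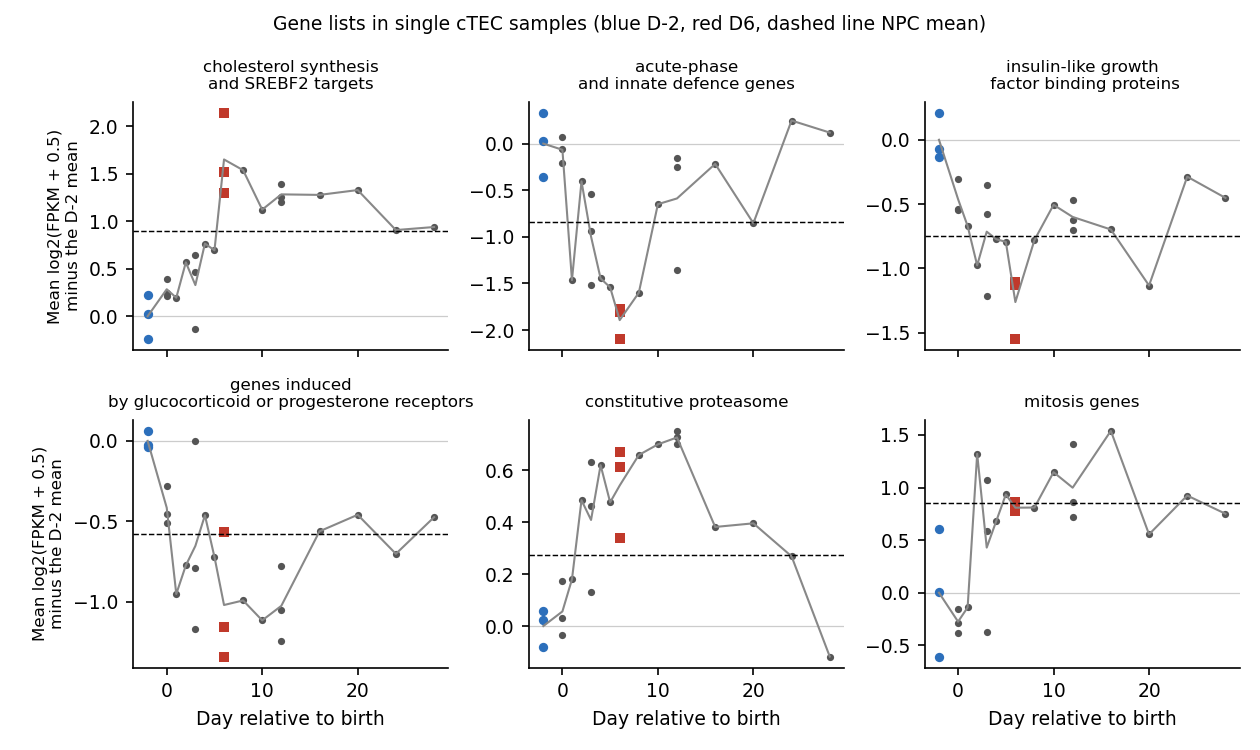
The mean over 6 gene lists of log2(FPKM + 0.5) minus its D-2 mean, for each cTEC sample by day relative to birth, with D-2 samples as blue circles, D6 samples as red squares, other samples as grey points, the line through the means of each day and the NPC mean as a dashed line. Days other than D-2, D0, D3, D6 and D12 have 1 sample. Cholesterol genes of D0, D1 and D3 overlap the D-2 samples, and those of D2 and of D4 to D28 lie above them. The single acute-phase values of D24 and D28 are above the D-2 mean and inside the range of the D-2 samples.

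mTECs from the same time points (n = 3 each) were set beside the cTECs, and the difference between the changes was tested. By the numbers in the sample titles, 5 mice gave both a cTEC and an mTEC sample. The test took the 12 samples as independent. Genes called higher in cTECs had a median log2 fold change of 1.65 in cTECs and 0.73 in mTECs, and genes called lower −1.82 and −0.92. These genes were chosen by their change in cTECs, so a larger median there follows from the choice and is no comparison of the cell types. A test of the difference between the 2 changes passed an adjusted p of 0.05 for 18 genes (0.114% of all genes, limma-voom interaction), and 16 of them were called in cTECs. That count rested on single libraries. It was 1 without cTEC D6 replicate 1, cTEC D-2 replicate 2, mTEC D6 replicate 1 or 3 or mTEC D-2 replicate 1 or 2, 2 without cTEC D-2 replicate 1, 7 without cTEC D-2 replicate 3, 9 without cTEC D6 replicate 2 and 38 without mTEC D6 replicate 2, and it was 16 and 20 without the remaining 2 libraries, cTEC D6 replicate 3 and mTEC D-2 replicate 3. *Fabp5* had the largest difference, with cTEC levels of 194 ± 36 FPKM at D-2 and 1836 ± 306 at D6 against 328 ± 56.3 and 489 ± 25.0 in mTECs (SD, n = 3, difference of log2 changes 2.64, SE 0.24, limma-voom adjusted p = 2.53e-04). *Fasn* was at 31.2 ± 7.08 and 188 ± 45.9 in cTECs against 21.1 ± 2.98 and 31.7 ± 7.46 in mTECs (difference 2.08, SE 0.32, limma-voom adjusted p = 0.0272). *Hmgcs1*, *Sc5d* and *Scd2*, with mTEC means of 8.65 and 9.92, 23.9 and 19.5, and 54.8 and 65.5 FPKM, did not pass that test. On the lower side, *Gsn*, gelsolin, which severs actin filaments, was at 521 ± 62.3 and 143 ± 32.9 in cTECs against 300.1 ± 90.5 and 255 ± 29.2 in mTECs (log2 fold change in cTECs −1.93, difference −1.72, SE 0.29, limma-voom adjusted p = 0.0357). *Glul*, glutamine synthetase, was at 367 ± 42.7 and 145 ± 10.2 against 266 ± 66.7 and 269 ± 23.2 (log2 fold change in cTECs −1.41, difference −1.46, SE 0.23, limma-voom adjusted p = 0.0282). The acute-phase list had a median of −1.79 in mTECs, beside −2.60 in cTECs, and the cholesterol list 0.66, beside 1.72. No list was tested for a difference between the cell types.

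Shares of motifs in the windows at gene starts are given for the genes called in each direction, with no test. GACGC, the core letters that FOXN1 binds, was in 56.5% of the 108 windows of genes called higher, 27.3% of the 99 windows of genes called lower and 43% of all 14161 windows. It was in none of the 19 windows of acute-phase genes. TATAAA was in 10.2% of windows of genes called higher and 22.2% of those of genes called lower, beside 7.72% of all, and GGGCGG in 62% and 41.4%, beside 59.9%. Both strands were searched, and shares of windows say nothing of binding.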

How the data were processed

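RNA from sorted cTECs and mTECs was sequenced, 1 mouse per sample, and n counts mice. Per the labels and the submitters' processing notes, the authors trimmed reads with Trimmomatic 0.35, aligned them to GRCm38 with STAR 2.5.1b and quantified genes with RSEM 1.2.28, after base calling with bcl2fastq 2.20. The annotation release was not given in the sources used here. The deposited tables hold, for each gene, the expected count that RSEM estimated, of which between 93.75% and 96.66% were whole numbers in the 6 cTEC samples. The FPKM values deposited beside them were scaled by the authors for gene length and depth.

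Expected counts were rounded to whole numbers. Genes that averaged 0.5 FPKM or more across the 28 cTEC samples were tested (15845 of 50600), with TMM scaling and limma-voom (limma 3.58.1, edgeR 4.0.16, R 4.3.3), D6 against D-2 with no covariate, and Benjamini-Hochberg adjustment over all genes tested. Calls required a 2-fold change or more and an adjusted p not above 0.01. The difference between the cTEC and mTEC changes was an interaction term over 12 samples, called where the adjusted p did not exceed 0.05. Levels are FPKM with SD. Symbols and gene coordinates came from GENCODE M21 (GRCm38), which matched 50376 gene identifiers without their version, and start windows from RefSeq (GRCm38.p6), which held windows for 11080 of the genes tested. Reads shared between near-identical genes are split by RSEM, so single members of such families are uncertain.

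The text names the 12 largest increases and 12 largest decreases among called genes whose higher group averaged 5 FPKM or more and whose groups did not overlap, leaving out *Foxn1* and its named targets. From each list it takes up to 6 called members by size, or the 2 with the highest mean FPKM where none was called, and from families with at least 3 called members up to 4 of them. It also names the 6 largest differences from mTECs in each direction. Markers and other members are given as levels, and those chosen after their values were seen are levels or are marked as such. Some list members are counted and not reported here by name. The samples, gene lists and tests were chosen with earlier results of these data known. The closing section gives the effect of other tests (edgeR quasi-likelihood, DESeq2 1.42.0 and limma-trend on FPKM), scalings, filters and weights, of a replicate block, of equal depth and of leaving out each library. The limma-voom, edgeR and DESeq2 fits of D6 against D-2 and the limma-voom interaction were run on simulated counts before use. The other alternatives were not. Summaries and plots used Python 3.11.15, NumPy 2.4.6, pandas 2.3.3 and Matplotlib 3.10.9.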

Additional observations from a re-analysis of the deposited data

Results flagged for a closer look

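For 18 genes, of which the 12 named here were also called in cTECs and had the largest differences, the change from D-2 to D6 differed between cTECs and mTECs by an interaction test (limma-voom, n = 3 in each of 4 groups). Values are the cTEC minus the mTEC log2 change. On the higher side they were 2.642 for *Fabp5* (adjusted p = 2.53e-04), 2.204 for *Ache* (0.0474), 2.082 for *Fasn* (0.0272), 2.051 for *Mreg* (0.0357), 2.000 for *Fgf14* (0.0272) and 1.811 for *Nav2*, a neuron navigator (0.0283). All 6 of these genes had the larger increase in cTECs, and *Nav2* had a log2 change of 1.51 in cTECs and −0.31 in mTECs. On the lower side they were −2.292 for the aldehyde dehydrogenase *Aldh3a1* (adjusted p = 0.0357), −1.716 for *Gsn* (0.0357), −1.628 for *Col6a1* (0.0357), −1.619 for *Col6a2* (0.0272), −1.501 for *Clu* (0.0464) and −1.459 for *Glul* (0.0282). *Aldh3a1* had a log2 change of −2.07 in cTECs. The mTEC log2 changes of these 6 genes lay between −0.22 and 0.21. *Clu*, for instance, was at 422 ± 105 FPKM at D-2 and 431 ± 28.3 at D6 in mTECs (SD, n = 3).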

How the results depend on the processing

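No direction changed among 1728 values of the 96 genes with fold changes under the alternatives, while 578 no longer passed the threshold and 25 newly did. In place of 213 genes called (107 higher, 106 lower), edgeR called 296 (162 and 134), DESeq2 757 (312 and 445), limma-trend on log2(FPKM + 0.5) or log2(FPKM + 0.1) 5 each (2 and 3), no filter on low values 395 (169 and 226), an adjusted p of at most 0.05 690 (253 and 437) and libraries drawn down to equal depth 43 (31 and 12). Leaving out 1 library gave 60 to 135 genes (33 to 76 higher, 27 to 61 lower). For the difference from mTECs, in place of 18 genes, edgeR called 52, sample quality weights 43, the mouse as a random effect 31 (the number in a sample title was taken as the mouse, which the labels do not state) and leaving out 1 library 1 to 38. With a replicate block 168 genes were called, and 1 for the difference from mTECs. The replicate numbers did not pair the samples: deviations of same-numbered samples correlated at 0.043, −0.072 and −0.022, and not every sample correlated best with its own number. Of 990 list medians under alternatives, 62 moved by more than 1 SD. With 3 mice in each group and unequal depth, low genes such as *Rag2*, at up to 0.26 FPKM at D-2 and up to 3.42 at D6, were not called.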
